A study of Homo sapiens with 9 samples.

Results

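Oxidative phosphorylation is run by 5 membrane complexes of the mitochondrion, and 4 of them are built from subunits of 2 genomes. The members described here were all rows of the count table whose symbols name a subunit of complexes I to V, cytochrome c or the ATP synthase inhibitor, without pseudogenes, antisense rows, readthrough rows or assembly factors. This gave 96 of the 16612 genes in the table. Of these, 13 were mitochondrially encoded (7 of complex I, 1 of complex III, 3 of complex IV and 2 of complex V) and 83 were nuclear encoded (36 of complex I, 4 of complex II, 10 of complex III, 13 of complex IV, 19 of complex V and CYCS). NDUFA4 was counted with complex IV, in which it is found. NDUFAB1 did not match the symbol rule. Rows left out were ATP5MF-PTCD1, ATP5PBP1, COX6A1P2 and UQCRFS1P1. All 96 members were among the 16312 genes that passed the filter on low counts.

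The cells were HNT34, an established human AML line with high EVI1, the transcription factor encoded by MECOM. NT cells carried a non-targeting shRNA, and the knockdown cells carried either sh#16 or sh#87 against EVI1, all from a lentiviral vector with RFP and puromycin resistance. Each group had 3 polyA-selected, strand-specific libraries, collected 3 days after selection per the study's text. One label field numbers the sh#87 hairpin 18, while titles and study give 87. No label states whether the libraries of a group came from separate cultures, so the tests measure the spread between these libraries, which may be technical.

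Complex I (NADH dehydrogenase), complex II (succinate dehydrogenase) and complex III (the cytochrome bc1 complex) pass electrons from NADH and succinate to cytochrome c, and complex IV (cytochrome c oxidase) passes them to oxygen. The proton gradient that complexes I, III and IV build drives complex V, the ATP synthase. Mitochondrial DNA encodes core subunits of all but complex II. Its genes are transcribed as long polycistronic RNAs that are cut, and most of the mRNAs are polyadenylated. Each nuclear subunit has its own promoter, and its protein is imported.

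Total depth was between 17096170 and 43502389 counts per library. MECOM stood at 571, 504 and 440 CPM (a count relative to the TMM-scaled library total) in NT, at 145, 143 and 145 CPM with sh#16, and at 109, 107 and 106 CPM with sh#87. Of the other 6 markers of myeloid blasts looked up, MPO had no row in the table. CD34 lay between 667 and 769 CPM in NT and between 41.2 and 118 CPM in the knockdown libraries, PTPRC between 821 and 895 CPM and between 96.4 and 148 CPM. KIT went from 84.8 to 87.8 CPM in NT to 26.7 to 34.9 CPM in knockdown and SPI1 from 61.7 to 83.0 CPM to 8.80 to 19.1 CPM. CD33 moved least, from 40.04 to 44.5 CPM to 33.1 to 39.3 CPM. Of the genes looked up as markers of other cells, EPCAM and ALB had no row. This heading is that of the lookup and does not mean that other cells were present. CD3E lay between 7.14 and 10.1 CPM in NT and between 2.64 and 5.26 CPM in the knockdown libraries. PECAM1 was at 210 to 223 CPM in NT and at 30.5 to 56.9 CPM in the knockdown libraries, and COL1A1 went from at most 0.172 CPM in NT to between 25.9 and 30.3 CPM. Their part in the results on the members was not tested. In bulk RNA, fewer cells of a type and less RNA per cell cannot be told apart.

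Mitochondrially encoded mRNAs were the members with the widest spread between libraries. Their share of all counts was 15.6%, 11.47% and 4.68% in NT replicates 1, 2 and 3. With sh#16 the share was 2.69%, 2.87% and 2.68%, and with sh#87 it was 5.44%, 4.61% and 5.96%. The sh#16 libraries therefore lay below all NT libraries, while NT replicate 3 lay within the range of the sh#87 libraries. For the nuclear encoded members the share ranged from 0.387% to 0.472% in NT, from 0.532% to 0.553% with sh#16 and from 0.415% to 0.445% with sh#87.

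Nearly all mitochondrially encoded mRNAs fell with EVI1 knockdown. Under edgeR's quasi-likelihood test with Benjamini-Hochberg adjustment over all genes, 12 of 13 were called lower with both shRNAs against NT, at an adjusted p of at most 0.05. Over all genes tested, 35.2% were called lower and 37.0% higher in this comparison. The median log2 fold change of the 13 was -2.09, beside 0.05 over all genes tested. With sh#16 alone 13 of 13 were called lower (all genes: 35.4% lower, 36.7% higher), with a median of -2.61. With sh#87 alone 12 of 13 were called lower (all genes: 38.2% lower, 39.5% higher), with a median of -1.67. The member not called, with both shRNAs and with sh#87, was MT-CO1. Both single comparisons use the same NT libraries.

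**Figure D1:**
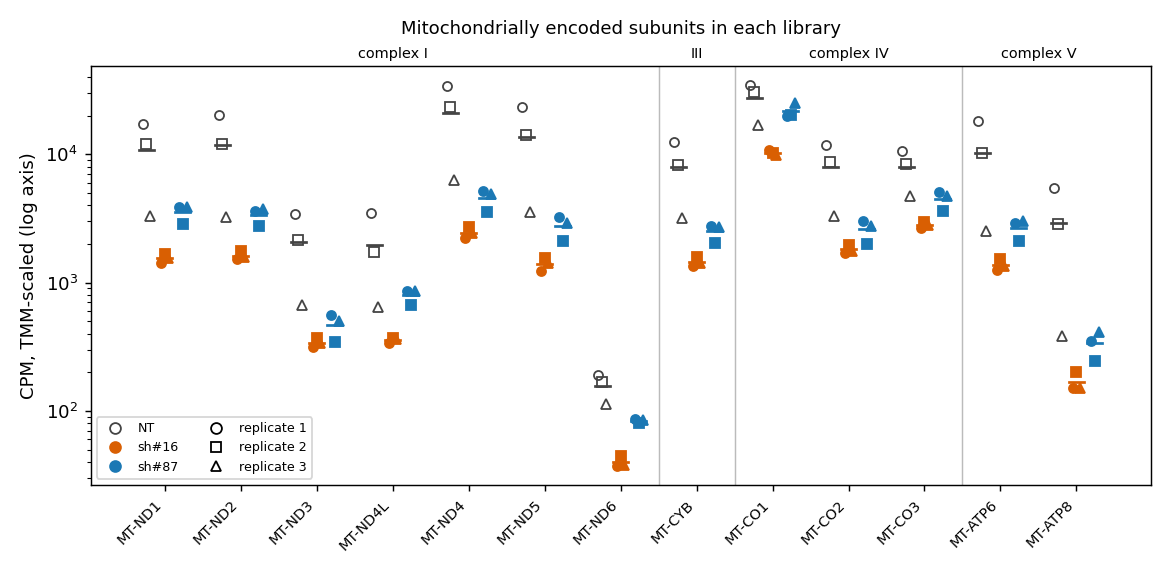
Level of each mitochondrially encoded subunit mRNA in each library, in TMM-scaled CPM on a log axis, with 1 point per library and a bar at the group mean. The NT points spread from replicate 1 at the top to replicate 3 at the bottom, and for 7 of the 13 genes NT replicate 3 lies within or below the range of the knockdown libraries.

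Of the subunits of complex I, 7 that lie in the membrane arm that pumps protons are encoded by mitochondrial DNA. MT-ND4 stood at 33708, 23125 and 6267 CPM in NT, at 2208, 2694 and 2424 CPM with sh#16, and at 5189, 3545 and 4913 CPM with sh#87. All 6 knockdown libraries were below all NT libraries, with a log2 fold change of -2.59 (SE 0.44, adjusted p 0.00041). MT-ND5 was at 23329, 14136 and 3551 CPM in NT, at 1231, 1563 and 1411 CPM with sh#16, and at 3215, 2111 and 2929 CPM with sh#87. Its log2 fold change was -2.72 (SE 0.48, adjusted p 0.000513), again without overlap. MT-ND1 and MT-ND2 fell by 2.09 and 2.24 on the log2 scale (adjusted p 0.00255 and 0.00172), and for both NT replicate 3, at 3325 and 3224 CPM, lay inside the sh#87 range. MT-ND3 fell by 2.36 (adjusted p 0.000279) and MT-ND4L by 1.76 (adjusted p 0.00613). Without NT replicate 1 the call of MT-ND4L was lost, at -1.05 and an adjusted p of 0.063.

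MT-ND6 is the member encoded on the other strand of mitochondrial DNA. It had the lowest level per kilobase of the 13 in these polyA-selected libraries. The part of the polyA selection in this level was not tested. MT-ND6 stood at 190, 169 and 113 CPM in NT. It was at 37.2, 44.4 and 38.2 CPM with sh#16, and at 86.0, 80.7 and 85.3 CPM with sh#87. The 3 groups did not overlap, and the spread within NT, a ratio of 1.68 between highest and lowest, was the smallest of the 13. The log2 fold change was -1.98 (SE 0.17, adjusted p 8.99e-06) with sh#16 and -0.91 (SE 0.17, adjusted p 0.000821) with sh#87.

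MT-CYB encodes cytochrome b, the catalytic subunit of complex III that carries both b haems. It was at 12515, 8243 and 3210 CPM in NT, at 1356, 1570 and 1426 CPM with sh#16, and at 2776, 2029 and 2704 CPM with sh#87. The groups NT and knockdown did not overlap, and the log2 fold change was -2.01 (SE 0.37, adjusted p 0.000655).

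The 3 core mRNAs of complex IV had log2 fold changes between -1.85 and -0.77. MT-CO1, which encodes the subunit that reduces oxygen, was at 34404, 30316 and 16914 CPM in NT, at 10722, 10279 and 9871 CPM with sh#16, and at 19935, 20044 and 24870 CPM with sh#87. With sh#16 it was below all NT libraries (-1.40, SE 0.24, adjusted p 0.00064). The 3 sh#87 libraries lay between NT replicates 3 and 2, and the log2 fold change was -0.33 (SE 0.24, adjusted p 0.223). With both shRNAs it was -0.77 (SE 0.35, adjusted p 0.0708), and it was called without NT replicate 3. MT-CO2, which takes electrons from cytochrome c, fell by 1.85 with both shRNAs (adjusted p 0.000542), without overlap. MT-CO3 stood at 10646, 8390 and 4717 CPM in NT and fell by 1.12 (adjusted p 0.00439), with NT replicate 3 inside the sh#87 range of 3597 to 5062 CPM.

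The 2 mitochondrially encoded subunits of complex V lie in its membrane part, where MT-ATP6 forms the proton channel with the c ring. MT-ATP8 had the lowest log2 fold change of the 96 members, -3.54 (SE 0.61, adjusted p 0.00041). It was at 5486, 2884 and 382 CPM in NT, at 151, 201 and 150 CPM with sh#16, and at 351, 244 and 411 CPM with sh#87, so that NT replicate 3 overlapped the sh#87 libraries. The NT libraries alone differed by 14.4-fold. MT-ATP6 was at 18259, 10136 and 2510 CPM in NT and between 1247 and 3040 CPM in the knockdown libraries, with a log2 fold change of -2.34 (SE 0.49, adjusted p 0.0015). In RefSeq (GRCh38.p14) MT-ATP8 lies at positions 8366 to 8572 and MT-ATP6 at 8527 to 9207 of chromosome MT. They share 46 bases, and MT-ND4L (10470 to 10766) and MT-ND4 (10760 to 12137) share 7, so reads over these bases cannot be told apart.

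For 6 of the 13 mitochondrial rows all knockdown libraries were below all NT libraries, and for 7 they overlapped. Over all genes, knockdown and NT libraries did not overlap for 32.1% (knockdown lower) and 33.9% (knockdown higher). With sh#16 alone, 13 of 13 were below NT without overlap (all genes: 35.8% lower, 38.6% higher), and with sh#87 alone 6 of 13 (all genes: 37.6% lower, 40.4% higher). The 24 rows of nuclear copies of mitochondrial genes, whose reads could be shared with the members, held between 1.09% and 1.67% as many counts as the 13 mRNAs. Of these MTATP6P1 was at 2258, 1247 and 307 CPM in NT and between 143 and 431 CPM in the knockdown libraries, and MTND2P28 at 818, 690 and 378 CPM and between 97.2 and 416 CPM.

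The NT libraries spread most in the mitochondrially encoded members. For 13 of 13 the highest NT library was replicate 1 and the lowest replicate 3, with a ratio of highest to lowest between 1.68 and 14.4 and a median of 5.15. The ratio was over 2 for 12 of 13, beside 13 of 83 nuclear encoded members and 21.2% of all genes tested. The median SD of the log2 level over 3 libraries was 1.23 in NT, 0.118 with sh#16 and 0.262 with sh#87. For the nuclear encoded members the corresponding medians were 0.259, 0.0681 and 0.0977, and over all genes 0.200, 0.0684 and 0.0914.

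**Figure D2:**
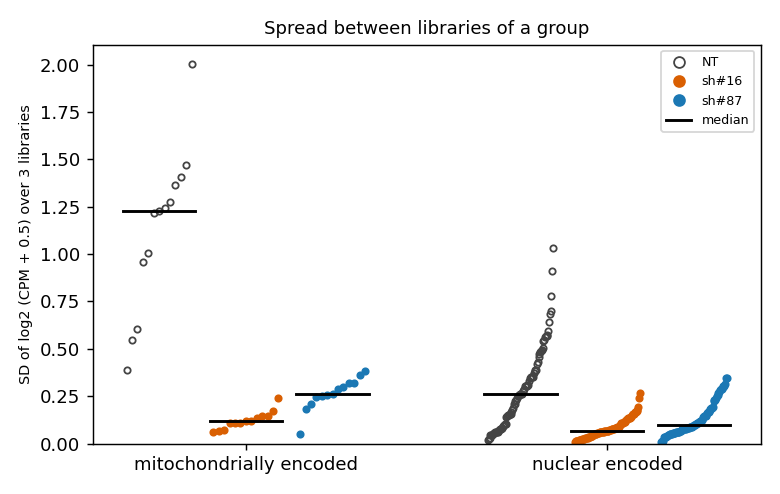
SD of the log2 level over the 3 libraries of each group, with 1 point per member (without COX6B2, at 0 in NT) and a line at the median. The NT medians lie above those of both knockdown groups for both kinds of member, and the mitochondrial NT points reach furthest.

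The nuclear encoded members did not share 1 order in NT. Of the 83, 26 had NT replicate 1 highest and replicate 3 lowest, and 34 had the reverse. The difference between NT replicates 3 and 1 had the sign of the knockdown change for 50 of 83, beside 63.9% of all genes. Mitochondrial rRNA, which has no long polyA tail, moved with the NT order. It was 0.239%, 0.0746% and 0.00724% of the counts in NT replicates 1 to 3, and at most 0.0117% in the knockdown libraries. The row for 5.8S rRNA held 5610, 689 and 216 counts in these NT libraries, between 180 and 514 with sh#16, and 0 in each sh#87 library. The part of these RNAs in the NT spread was not tested.

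The make-up of the mitochondrial mRNA pool also differed within NT. MT-CO1 was 17.7%, 22.6% and 34.6% of the counts of the 13 mRNAs in NT, between 38.1% and 43.1% with sh#16 and between 38.7% and 47.3% with sh#87. MT-ATP8 was 2.82%, 2.15% and 0.782% in NT and between 0.576% and 0.746% in the knockdown libraries. NT replicate 3 was thus the NT library nearest to the knockdown libraries in both shares. MT-CO2 kept a share between 6.09% and 6.81% in NT and between 6.87% and 7.31% with sh#16, and was lower, 4.71% to 5.90%, with sh#87.

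Per kilobase of gene, MT-CO1 had the highest mean of the 13 in each group, at 17647 CPM per kb in NT, 6674 with sh#16 and 14018 with sh#87. The lowest was MT-ND6, at 300 CPM per kb in NT, 76.0 with sh#16 and 160 with sh#87. In NT the order between them could not be resolved, the top included. MT-CO1 reached 22311 CPM per kb in its highest NT library, and MT-ND4 reached 24462, MT-ATP8 26503.5 and MT-ATP6 26812.5. With each shRNA MT-CO1 did not overlap the next. In NT, of 12 pairs of neighbours, 1 (MT-ND3 above MT-ND6) did not overlap over the 3 libraries. With sh#87, 3 of 12 did not overlap. With sh#16, 6 of 12 neighbours did not overlap, with MT-CO1, MT-CO3 (3567 CPM per kb) and MT-CO2 (2654 CPM per kb) on top. The median of the nuclear encoded members, over the 82 with a transcript length, was 41.9 CPM per kb in NT, 42.2 with sh#16 and 34.0 with sh#87, beside medians of 11318, 1554 and 3244 CPM per kb for the 13 mitochondrial mRNAs.

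Dividing mitochondrially by nuclear encoded counts within a library removes the scaling between libraries. Over complexes I, III, IV and V this ratio was 43.3, 30.2 and 10.6 in NT, 5.51, 5.69 and 5.28 with sh#16, and 13.6, 11.9 and 16.0 with sh#87. The group means were 28.1 ± 16.5, 5.49 ± 0.205 and 13.8 ± 2.04 (SD, n = 3). All sh#16 libraries lay below NT and below sh#87, and the sh#87 libraries lay above NT replicate 3 and below the other NT libraries. On the log2 scale the knockdown mean was 1.47 below the NT mean, with a pooled SD within groups of 0.622. Without NT replicate 3 the difference was -2.06, and without NT replicate 1 it was -1.04.

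**Figure D3:**
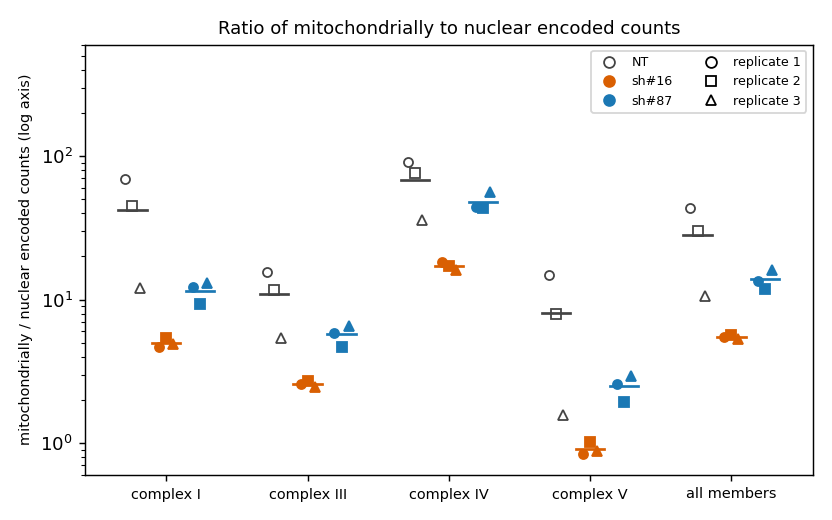
Ratio of mitochondrially to nuclear encoded counts by complex and over all 4 complexes, on a log axis, with 1 point per library and a bar at the group mean. In each complex the sh#16 libraries lie lowest, and NT replicate 3 lies near the sh#87 libraries.

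By complex, the ratio was 42.1 ± 28.9 in NT, 4.98 ± 0.338 with sh#16 and 11.5 ± 1.90 with sh#87 for complex I (SD, n = 3). For complex III it was 10.9 ± 5.10, 2.58 ± 0.119 and 5.72 ± 0.952. Complex IV had the highest ratios, 67.8 ± 28.3, 17.2 ± 0.996 and 48.0 ± 7.11. In complex V it was 8.10 ± 6.63, 0.913 ± 0.0913 and 2.49 ± 0.502, so that with sh#16 the 2 mitochondrial mRNAs held about as many counts as the 19 nuclear ones. For complexes I and III, NT replicate 3 (12.1 and 5.41) lay within the sh#87 range, and for complexes IV and V (36.1 and 1.57) it lay below the sh#87 libraries. No test was made on this ratio, which is a score over the members.

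The nuclear encoded members as a whole did not follow the mitochondrial ones. Of 83, 23 were called higher and 24 lower with both shRNAs, which is 27.7% and 28.9%, below the shares of all genes given above. Their median log2 fold change was -0.03. With sh#16, 32 were called higher (38.6%, all genes 36.7%) and 16 lower (19.3%, all genes 35.4%), with a median of 0.20. With sh#87, 22 were called higher (26.5%, all genes 39.5%) and 40 lower (48.2%, all genes 38.2%), with a median of -0.24. These splits depend on the scaling. With library totals in place of TMM, all genes shifted to a median of 0.34 with both shRNAs, and the splits became 30 higher and 9 lower with both, 45 and 8 with sh#16, and 24 and 22 with sh#87. The shares of all genes in that fit were 45.9% higher and 25.5% lower with both, 46.1% and 25.3% with sh#16, and 47.1% and 29.0% with sh#87. Upper-quartile scaling, with a shift to 0.16, gave 27 and 18 with both, 38 and 14 with sh#16, and 23 and 31 with sh#87, beside 40.7% and 31.4%, 40.5% and 31.6%, and 43.1% and 34.4% of all genes. Relative to the median of all genes, the members' median with sh#87 was -0.28 under TMM and -0.27 under library totals, and with sh#16 0.16 under each.

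**Figure D4:**
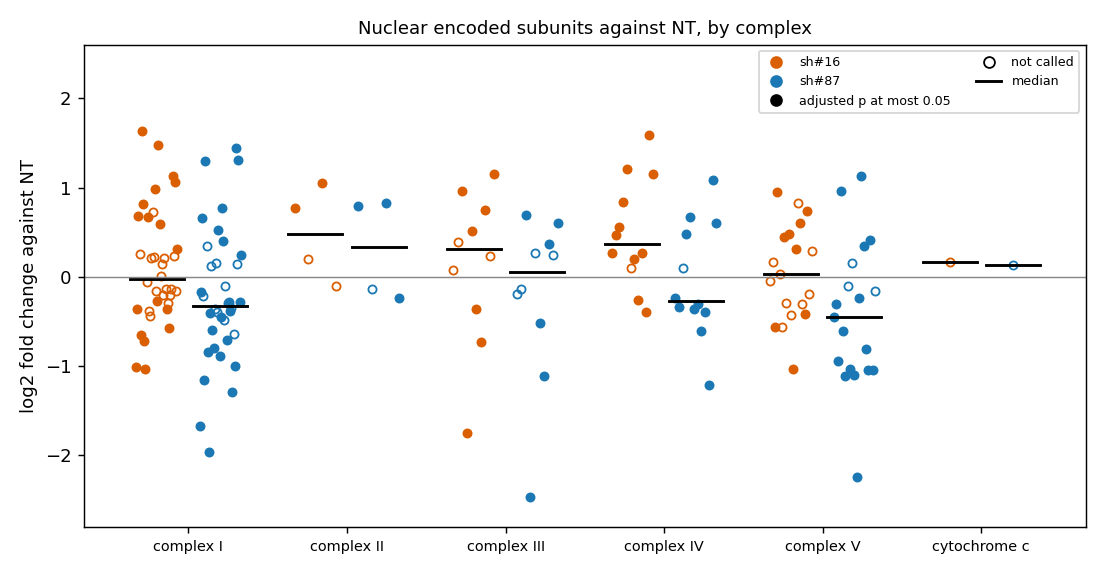
Log2 fold change of each nuclear encoded member against NT with sh#16 and with sh#87, by complex (without COX6B2, at 0 in NT). Filled points passed an adjusted p of at most 0.05, and lines mark medians, which lie lower with sh#87 than with sh#16 in each complex.

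Promoters of nuclear encoded members were searched for letters bound by factors known to act on them, in the window from 250 bases before to 50 after the RefSeq start (GRCh38.p14), on both strands. Entries existed for 67 of 83 members. The ETS core CCGGAAG was found in 20 of 67 (29.9%), beside 10.7% of 27305 promoters. GCGCATGC, a core of NRF1 sites, was in 14 (20.9%, all promoters 3.27%), the YY1 core AAGATGGC in 11 (16.4%, all promoters 3.03%) and the E-box CACGTG in 7 (10.4%, all promoters 7.43%). No motif searched holds another, and a match does not show binding. Among members called higher, lower or not called with both shRNAs, the ETS core was in 8 of 19, 5 of 20 and 7 of 28, and the NRF1 core in 2 of 19, 3 of 20 and 9 of 28.

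To show such sites in members that moved in opposite directions, the members with the highest and the lowest change were taken for each match. The choice was made among members above 5 CPM with the match before the start. It left out the members on a chromosome set aside beforehand, so these are extremes of that subset only. For each, 60 bases are given, with the match in capitals. All are from GRCh38.p14, 5′ to 3′ on the strand of the gene. The NRF1 core lay in NDUFS7 (chr19:1383808-1383867, plus strand, log2 fold change 1.297) and in NDUFA6 (chr22:42090905-42090964, minus strand, -1.42), and the ETS core in COX8A (chr11:63974560-63974619, plus strand, 1.36) and in NDUFA1 (chrX:119871758-119871817, plus strand, -1.303).
NDUFS7: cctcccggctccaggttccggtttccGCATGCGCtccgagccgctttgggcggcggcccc
NDUFA6: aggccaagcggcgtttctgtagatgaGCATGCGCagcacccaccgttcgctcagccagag
COX8A: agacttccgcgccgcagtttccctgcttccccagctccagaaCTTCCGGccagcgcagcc
NDUFA1: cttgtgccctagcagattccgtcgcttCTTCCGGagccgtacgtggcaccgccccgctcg
In all 4 the match is the reverse complement of the core as written above, and it starts 73, 166, 18 and 47 bases before the start of the gene.

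In complex I, 9 of 36 nuclear encoded subunits were called higher and 13 lower with both shRNAs (all genes: 37.0% higher, 35.2% lower). The highest change was that of NDUFA2, an accessory subunit of the matrix arm, at 8.82, 8.28 and 11.04 CPM in NT, 26.6, 30.3 and 30.5 CPM with sh#16, and 26.1, 22.9 and 20.03 CPM with sh#87. It rose by a log2 fold change of 1.47 (SE 0.165, adjusted p 2.32e-05), with no overlap. NDUFS7 and NDUFV1 are core subunits that carry an iron-sulfur cluster and the NADH site, respectively. NDUFS7 was at 8.51, 11.8 and 21.1 CPM in NT and between 28.0 and 38.3 CPM in the knockdown libraries (1.297, SE 0.25, adjusted p 0.000958). NDUFV1 was at 63.0, 73.9 and 81.9 CPM in NT and between 145 and 194 CPM (1.19, SE 0.12, adjusted p 1.4e-05).

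The lowest changes in complex I were those of accessory subunits. NDUFA6 fell from 61.2, 46.2 and 35.6 CPM in NT to 22.6, 23.0 and 24.2 CPM with sh#16 and 15.2, 10.55 and 10.9 CPM with sh#87, a log2 fold change of -1.42 (SE 0.29, adjusted p 0.00119). NDUFA1 fell by 1.303 (SE 0.26, adjusted p 0.00114), from 45.3, 33.5 and 21.2 CPM to between 8.69 and 18.6 CPM. NDUFS4, at the tip of the matrix arm, was steady in NT (23.6, 23.3 and 25.2 CPM) and lower with sh#16 (15.3 to 17.6 CPM) and sh#87 (8.76 to 10.8 CPM). Its log2 fold change was -0.89 (SE 0.21, adjusted p 0.00301). None of the 6 extreme members of complex I had an overlap between knockdown and NT libraries.

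Complex II has no mitochondrially encoded subunit, and 2 of its 4 members were called higher (all genes: 37.0%). SDHA, the flavoprotein that oxidizes succinate, was at 88.1, 92.5 and 94.6 CPM in NT, 154, 160.8 and 153 CPM with sh#16, and 166, 153 and 159 CPM with sh#87. Its rise of 0.78 (SE 0.07, adjusted p 5.62e-06) came with log2 fold changes of 0.77 with sh#16 and 0.80 with sh#87. SDHC, a membrane anchor, rose by 0.95 (SE 0.13, adjusted p 0.000103), from 22.4, 26.4 and 31.5 CPM to between 44.6 and 57.6 CPM. SDHB, the iron-sulfur subunit, was at 30.7, 34.0 and 46.4 CPM in NT and between 29.4 and 44.1 CPM, and was not called (0.04, adjusted p 0.823). SDHD was not called either (-0.17, adjusted p 0.1), but it was called lower in the fit of 3 groups (-0.17, adjusted p 0.0369) and without NT replicate 3 (-0.23, adjusted p 0.0411).

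In complex III, 3 of 10 nuclear encoded members were called higher and 3 lower (all genes: 37.0% higher, 35.2% lower). UQCRB, the subunit that binds ubiquinone, was at 435, 286 and 125 CPM in NT, 73.0, 89.4 and 89.6 CPM with sh#16, and 64.6, 42.8 and 46.1 CPM with sh#87. It had the lowest change of the nuclear encoded members, -2.06 (SE 0.34, adjusted p 0.000329), and shared the order of the NT libraries with the mitochondrial mRNAs. UQCRFS1, the Rieske iron-sulfur protein, differed little within NT (53.6, 52.7 and 54.8 CPM) and stood at 31.2 to 32.9 CPM with sh#16 and 24.5 to 25.6 CPM with sh#87 (-0.91, SE 0.12, adjusted p 7.36e-05). CYC1, cytochrome c1, was at 49.2, 69.0 and 89.8 CPM in NT, a range that held all knockdown libraries (-0.05, adjusted p 0.796). UQCRQ rose by 0.91 (adjusted p 0.00305) and UQCR11 by 0.84 (adjusted p 0.00117), both small subunits and both without overlap. UQCRHL is a near-identical copy of UQCRH, so reads of these rows are uncertain.

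CYCS, the soluble carrier between complexes III and IV, was at 120.5, 105 and 89.8 CPM in NT, 114, 117 and 124 CPM with sh#16, and 118, 117 and 110 CPM with sh#87. It was not called with both shRNAs (0.15, SE 0.10, adjusted p 0.175). It was called higher with library totals (0.46, adjusted p 0.000327), with upper-quartile scaling (0.26, adjusted p 0.0367) and without NT replicate 1 (0.25, adjusted p 0.032).

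In complex IV, 5 of 13 nuclear encoded members were called higher and 2 lower with both shRNAs (all genes: 37.0% higher, 35.2% lower). COX8A had the highest change of those above 5 CPM, 1.36 (SE 0.39, adjusted p 0.00897), and also the widest NT range of the nuclear encoded members, 10.49, 16.6 and 44.03 CPM, or 4.20-fold. With sh#16 it stood at 68.8, 71.5 and 75.4 CPM and with sh#87 at 50.6, 52.7 and 48.2 CPM, above all NT libraries. COX6B1, which lies where the dimer meets, rose by 0.97 (SE 0.26, adjusted p 0.0061), from 21.5, 28.1 and 47.4 CPM to between 48.9 and 80.0 CPM. COX6A1 rose by 0.67 (adjusted p 0.00076), from 62.7 to 71.6 CPM in NT to between 85.5 and 120 CPM. COX7C, at 98.4, 92.8 and 114 CPM in NT, 74.2, 77.3 and 81.5 CPM with sh#16, and 48.1, 44.2 and 39.7 CPM with sh#87, fell by 0.74 (SE 0.23, adjusted p 0.0146). COX7A2L, which takes part in joining complexes III and IV, fell by 0.42 (adjusted p 0.0107). The calls of COX7C and COX7A2L were lost with library totals in place of TMM and in limma-voom with a weight per group.

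For 4 subunits of complex IV and 1 of complex V each shRNA was called against NT under TMM scaling, with sh#16 higher and sh#87 lower. COX4I1, the common isoform of the largest nuclear encoded subunit, was at 92.1, 94.1 and 90.8 CPM in NT. It was at 105, 117 and 112 CPM with sh#16 (0.27, SE 0.06, adjusted p 0.00351) and at 81.8, 77.3 and 75.0 CPM with sh#87 (-0.24, SE 0.06, adjusted p 0.00588). COX7A2 was at 40.5, 40.01 and 43.2 CPM in NT, 46.0 to 48.1 CPM with sh#16 (0.20, adjusted p 0.0263) and 32.2 to 35.1 CPM with sh#87 (-0.30, adjusted p 0.00269). COX7B was at 40.1, 35.9 and 36.6 CPM in NT, 41.1 to 47.6 CPM with sh#16 (0.27, adjusted p 0.045) and 25.7 to 32.6 CPM with sh#87 (-0.40, adjusted p 0.00724). For each of these 3 the sh#16 libraries were above and the sh#87 libraries below all NT libraries. COX5A, also of complex IV, was at 56.4, 54.6 and 60.4 CPM in NT, 75.9 to 81.6 CPM with sh#16 (0.47, adjusted p 0.0104) and 56.6, 39.5 and 39.4 CPM with sh#87 (-0.34, adjusted p 0.0426). Its first sh#87 library lay inside the NT range. ATP5MG, a membrane subunit of complex V, was at 71.5, 75.6 and 71.9 CPM in NT, 86.2 to 94.7 CPM with sh#16 (0.31, adjusted p 0.00894) and 57.1 to 70.2 CPM with sh#87 (-0.23, adjusted p 0.0323), with no overlap between the groups. Both comparisons share the NT libraries. The sh#87 changes of these subunits lay between -0.40 and -0.23, and such small changes depend on the scaling. Over all genes, the middle value with sh#87 was 0.035 under TMM and 0.33 with library totals. With sh#16 it was 0.040 and 0.33. Nuclear encoded members called lower with sh#87 were 40 under TMM and 22 with library totals. Whether each of these subunits stays lower with sh#87 under library totals was not tested.

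Of the 6 tissue-restricted isoforms of complex IV looked up, COX6B2, the testis form of COX6B, had a row. It had 0 counts in each NT library and between 6 and 27 counts in each knockdown library. At a limit of 3 counts in a library, or 0.130 CPM in NT, its mean of 0.451 CPM in knockdown was at least 3.47-fold higher. Such limits cover counting error only.

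In complex V, 4 of 19 nuclear encoded members were called higher and 6 lower with both shRNAs (all genes: 37.0% higher, 35.2% lower). ATP5F1B, the catalytic beta subunit, had the highest group means per kilobase of the nuclear encoded members with a transcript length. Single NT libraries did not all share this order. In NT replicate 1 ATP5MF was above it (214 and 185 CPM per kb), and in NT replicate 3 ATP5MC2 (325 and 264 CPM per kb). ATP5F1B was at 325, 377 and 465 CPM in NT. It was at 431, 438 and 443 CPM with sh#16, and at 326, 317 and 299 CPM with sh#87 (-0.05, SE 0.17, adjusted p 0.797). ATP5F1A, the alpha subunit, was at 239, 274 and 364 CPM in NT, 281 to 285 CPM with sh#16 and 207 to 221 CPM with sh#87 (-0.24, SE 0.16, adjusted p 0.2). ATP5F1D, the delta subunit of the central stalk, rose by 0.95 (SE 0.19, adjusted p 0.0012), from 19.0, 28.2 and 41.0 CPM to between 53.4 and 59.1 CPM. ATP5PD of the peripheral stalk rose by 0.58 (SE 0.12, adjusted p 0.00127), from 50.6 to 57.4 CPM in NT to between 67.5 and 90.3 CPM.

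ATP5MF, a small membrane subunit, had the lowest change of the nuclear encoded members of complex V. It was at 94.7, 94.97 and 69.3 CPM in NT, 40.01, 44.8 and 41.7 CPM with sh#16, and 19.4, 17.3 and 18.2 CPM with sh#87, a log2 fold change of -1.51 (SE 0.32, adjusted p 0.0017). The 3 groups did not overlap. Its readthrough row with PTCD1, which shares sequence with it, was at 4.43 to 9.87 CPM in NT and 10.9 to 15.3 CPM in knockdown. ATP5IF1, the inhibitor that blocks ATP hydrolysis by the synthase, was at 80.8, 55.4 and 35.3 CPM in NT, 34.5, 39.3 and 42.6 CPM with sh#16, and 32.6, 24.3 and 22.6 CPM with sh#87. It fell by 0.81 with both shRNAs (SE 0.26, adjusted p 0.0163), with NT replicate 3 inside the sh#16 range. Its call was lost without NT replicate 1 (-0.48, adjusted p 0.113), with library totals (-0.48, adjusted p 0.0898) and with a weight per group (-0.60, adjusted p 0.0712).

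**Figure D5:**
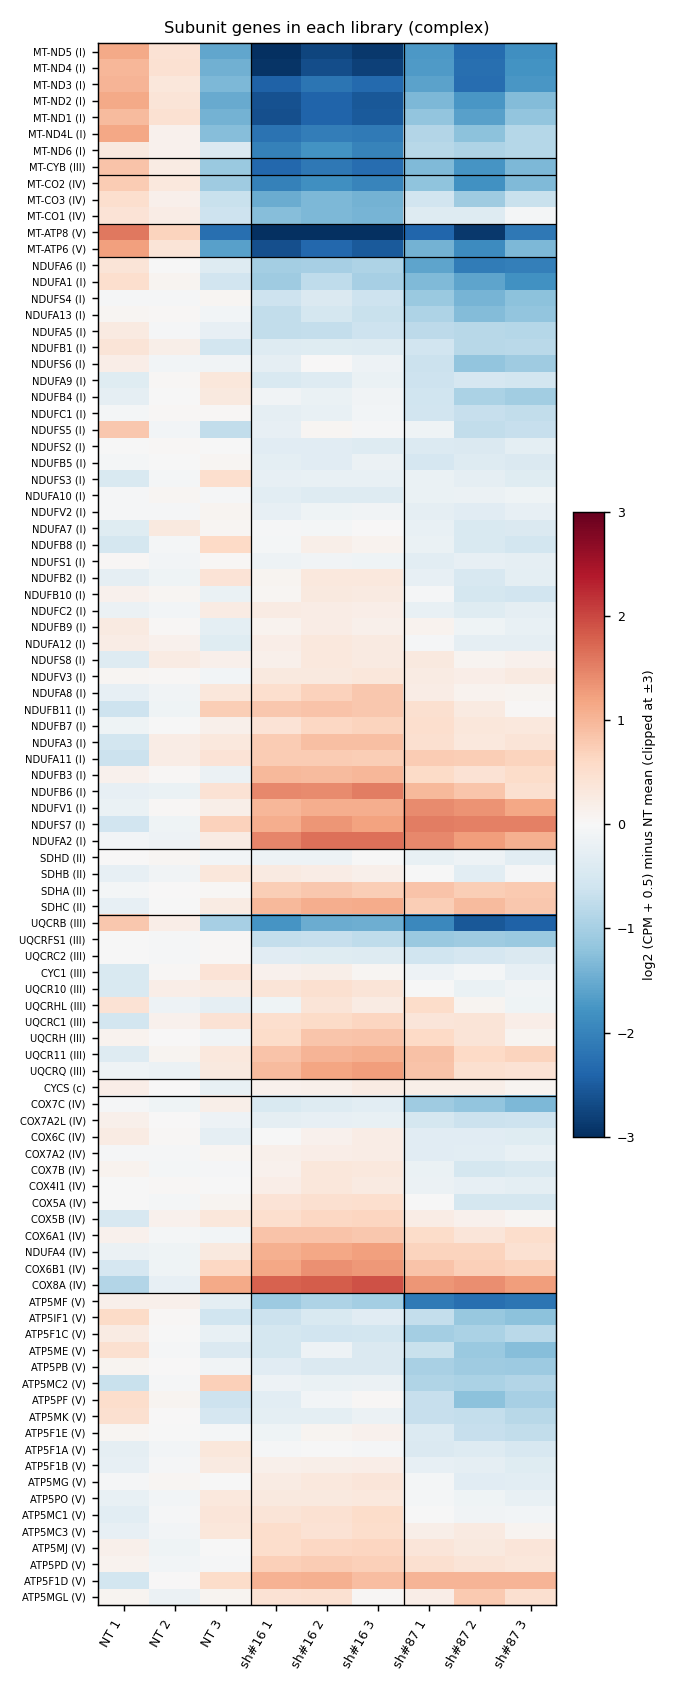
Log2 level of each member in each library, as the difference from the NT mean and clipped at 3 either way, grouped by genome and complex (in brackets) and sorted by change within each (without COX6B2). The mitochondrial block at the top is red in NT replicate 1, blue in NT replicate 3 and deepest blue with sh#16, while nuclear blocks hold both colours.

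The direct comparison of sh#87 with sh#16, which uses no NT library in the contrast, separated the genomes. All 13 mitochondrial mRNAs were higher with sh#87 by sign, with a median log2 difference of 0.97, and 12 of 13 had no overlap between the shRNAs. Of the nuclear encoded members 76 of 83 were lower with sh#87, with a median of -0.46, and 65 were lower and 3 higher without overlap. Over all genes the median was -0.02, and 31.1% were higher and 34.3% lower with sh#87 without overlap. In the fit of 3 groups, which shares the spread with NT, 2 of 13 mitochondrial mRNAs were called higher (all genes: 16.0%) and 37 of 83 nuclear encoded members lower (all genes: 17.7%), with 1 nuclear member higher. The mitochondrial members called were MT-ND6 (1.07, SE 0.17, adjusted p 0.00194) and MT-CO1 (1.07, SE 0.24, adjusted p 0.00914). When the 6 knockdown libraries were fitted without NT, 13 of 13 mitochondrial mRNAs were called higher and 65 nuclear encoded members lower, beside 30.1% and 31.5% of all genes. In the fit of 3 groups the counts moved with single libraries. Without NT replicate 3, 12 mitochondrial members were called higher and 57 nuclear members lower (all genes: 24% and 25.0%), and without NT replicate 1, 7 and 50 (all genes: 22.3% and 23.2%). Without sh#87 replicate 2 they were 2 and 22 (all genes: 10.5% and 11.7%), and without sh#87 replicate 3 also 2 and 22 (all genes: 10.4% and 11.8%). Without sh#16 replicate 2 they were 2 and 23 (all genes: 9.97% and 11.8%), and without sh#16 replicate 3 also 2 and 23 (all genes: 10.4% and 11.8%).

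In this comparison the nuclear encoded members were lower with sh#87 in 13 of 13 members of complex IV by sign (9 called), 17 of 19 of complex V (12 called), 33 of 36 of complex I (13 called) and 9 of 10 of complex III (3 called). Of all genes, 17.7% were called lower. The largest difference among the members was that of ATP5MF (-1.20, SE 0.13, adjusted p 0.000306). NDUFA6 (-0.93, adjusted p 0.00885), COX7C (-0.82, adjusted p 0.000577), NDUFS4 (-0.71, adjusted p 0.0012) and COX4I1 (-0.51, adjusted p 0.000583) were also called lower. SDHA differed by 0.03 (SE 0.06, adjusted p 0.713) and ATP5F1D by 0.01 (SE 0.22, adjusted p 0.974).

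Genes outside the complexes that build or control them were counted from lists of 55 assembly factors, 9 genes of mitochondrial DNA replication, 25 of mitochondrial transcription and RNA processing, and 12 nuclear regulators. With both shRNAs 12 of 55 assembly factors were called higher (21.8%) and 18 lower (32.7%), both below the 37.0% and 35.2% of all genes. By complex, 3 of 14 were higher and 4 lower for complex I, 1 and 1 of 4 for complex II, 1 and 2 of 6 for complex III, 5 and 10 of 26 for complex IV, and 2 and 1 of 5 for the ATP synthase. FOXRED1, needed to assemble complex I, rose by 1.64 (SE 0.23, adjusted p 0.000106), from 12.6, 16.4 and 22.0 CPM to between 41.4 and 66.1 CPM, while NDUFAF4 fell by 0.87 (adjusted p 0.00166). SURF1, a complex IV assembly factor, rose by 1.87 (SE 0.17, adjusted p 6.26e-06), from 5.16, 7.72 and 8.57 CPM to between 22.4 and 29.6 CPM, and COA7 fell by 1.70 (adjusted p 2.14e-05). For complex II, SDHAF1 rose by 0.69 (adjusted p 0.0025) and SDHAF4 fell by 1.81 (adjusted p 9.01e-06). LYRM7 rose by 0.62 (adjusted p 8.39e-05) and UQCC1 fell by 0.96 (adjusted p 2.78e-06) for complex III. For the ATP synthase, TMEM70 rose by 0.53 (adjusted p 0.00886) and ATPAF1 fell by 0.69 (adjusted p 0.00412). TMEM70 was not called without NT replicate 2, nor ATPAF1 with library totals.

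Of the 9 replication genes 2 were called higher (22.2%) and 4 lower (44.4%), beside 37.0% and 35.2% of all genes. POLG2, the accessory subunit of the mitochondrial DNA polymerase, rose by 0.88 (adjusted p 0.00373), and SSBP1, which binds single-stranded mitochondrial DNA, fell by 0.997 (adjusted p 0.000196). Of the 24 transcription and RNA processing genes with a row, 6 were called higher (25.0%) and 12 lower (50%), with a median of -0.32. FASTK rose by 1.13 (adjusted p 0.00307), and TRMT10C, a subunit of the enzyme that cuts tRNAs from mitochondrial transcripts, fell by 0.87 (adjusted p 0.00147), from 68.2, 56.3 and 40.5 CPM to between 24.5 and 35.1 CPM. Of the 10 nuclear regulators with a row, 1 was called higher (10%) and 8 lower (80.0%), with a median of -0.94 beside 0.05 over all genes. GABPB1, a subunit of the ETS-family factor GABP that activates many subunit promoters, was at 97.4, 80.0 and 73.2 CPM in NT, 21.7, 19.9 and 20.7 CPM with sh#16, and 13.2, 11.49 and 12.1 CPM with sh#87 (-2.34, SE 0.22, adjusted p 6.33e-06). ESRRA, a nuclear receptor, was the one called higher (0.81, adjusted p 0.0179), and its call was lost without NT replicate 1 or 2.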

How the data were processed

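RNA of HNT34 cells with NT, sh#16 or sh#87 was sequenced in 9 libraries, 3 per group, and groups were taken from the sample titles. The values are estimated counts that the authors deposited in 1 table of gene symbols, without normalization. Its header names a salmon output per library, whereas the methods name FastQC v1.3, STAR with gene counts, ENSEMBL and GRCh38. The header stands 1 column left of the values. No value needed rounding.

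Counts were tested in R 4.3.3 with edgeR 4.0.16 (filterByExpr, TMM, quasi-likelihood test, Benjamini-Hochberg adjustment over 16312 genes), and only member rows are printed. Calls used an adjusted p of at most 0.05. Both shRNAs against NT came from a fit of 2 groups, all other comparisons from a fit of 3. DESeq2 1.42.0, limma-voom (limma 3.58.1), other scalings, filters and thresholds, the fit of 2 groups in place of 3 (or the reverse), a replicate block and leaving out each library were alternatives. The model was checked on simulated counts, with the same setting for the spread in all genes and groups. This check does not cover the wider spread of the NT libraries.

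The members, gene lists and tests were chosen with earlier results of these data known. Named are all 13 mitochondrial members, the nuclear encoded members of each complex with the 3 (complex I) or 2 (complexes II to V) highest and lowest changes with both shRNAs among those with a mean of at least 5 CPM, the core subunits, CYCS, ATP5IF1, the isoforms of complex IV and their common partners, and the highest and lowest gene of each list. NDUFAB1, UQCRH, UQCRHL, COX5A, ATP5MG and the rows of related sequence named in the text are outside this rule and were added after their values were seen. Lengths came from canonical GENCODE v44lift37 transcripts for nuclear genes and from RefSeq positions for mitochondrial genes. Figures used Python and matplotlib. The numbers of the libraries do not pair them, since the correlations of deviations between same-numbered libraries lay between -0.184 and 0.0989. Replicates of a group differed by more than sampling noise (chi-square per gene between 2.38 and 290). One marker looked up is not reported here.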

Additional observations from a re-analysis of the deposited data

Results flagged for a closer look

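For 24 of the 60 named genes the effects of the 2 shRNAs differed, by the direct test of sh#87 against sh#16 in edgeR (adjusted p of at most 0.05 over all genes). Of all genes tested, 33.7% were called in this comparison. Values are log2 differences, sh#87 minus sh#16. Of the mitochondrial mRNAs, MT-CO1 and MT-ND6 were each higher with sh#87, by 1.07. The nuclear encoded subunits were lower with sh#87. In complexes I and III the values were -0.926 for NDUFA6, -0.712 for NDUFS4, -0.374 for UQCRFS1 and -0.542 for UQCRQ. In complex IV they were -0.819 for COX7C, -0.349 for COX7A2L, -0.514 for COX4I1, -0.358 for COX6A1, -0.498 for COX7A2 and -0.663 for COX7B. In complex V they were -1.2 for ATP5MF, -0.328 for ATP5PD, -0.4 for ATP5F1A and -0.477 for ATP5F1B.

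Of the genes that build or control the complexes, FOXRED1 (0.581) and POLG2 (0.683) were higher with sh#87, and NDUFAF4 (-0.517), SDHAF4 (-0.448), COA7 (-0.661), ATPAF1 (-0.498), TRMT10C (-0.472) and GABPB1 (-0.759) were lower.

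In 1 of 65 values looked at, a single knockdown library stood apart. LYRM7 was at 106 CPM in sh#87 replicate 1 and between 116 and 119 CPM in the other 5 knockdown libraries, and the gap to its neighbour spanned 0.778 of their whole range. Chance flags about 1 in 20 such groups, and sh#16 and sh#87 libraries were pooled for it.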

How the results depend on the processing

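Counts of called members moved by more than 1.5 times mainly with a fold threshold. When a log2 fold change of 1 or more in size was also required, the 59 members called with both shRNAs became 22, the 61 with sh#16 became 27, the 74 with sh#87 became 29, and the 40 of sh#87 against sh#16 became 3. Before this the members called were 61.5%, 63.5%, 77.1% and 41.7% of the 96, beside 72.1%, 72.1%, 77.7% and 33.7% of all genes. With a size of 2 or more and a threshold of 0.01 on the adjusted p the counts were 10, 11, 7 and 0 in the same order, the last because no member differed by more than 1.20 between the shRNAs. The count for sh#87 against sh#16 was also 22 with that threshold alone, 79 in limma-voom with a weight per group and 81 when those libraries alone were fitted. All genes moved as well, from 16.0% higher and 17.7% lower to 28.5% and 30.6% with a weight per group. When those libraries alone were fitted the shares of all genes were 30.1% and 31.5%. No share of all genes is given for the fold thresholds or the threshold of 0.01. With each library left out in turn it lay between 24 (without sh#87 replicate 2 or 3) and 72 (without NT replicate 3), with 25 without sh#16 replicate 2 or 3 and 59 without NT replicate 1. The other counts lay between 52 and 63, between 56 and 73, and between 61 and 82. Over all genes in those fits with both shRNAs, between 32.4% and 36.9% were called higher and between 31.6% and 35.0% lower. With sh#16 these shares were 32.8% to 39.6% and 32.1% to 38.2%, and with sh#87 36.7% to 41.8% and 35.6% to 39.8%. For sh#87 against sh#16 they are given with the direct comparison above, for each library named here. The log2 ratio of mitochondrially to nuclear encoded counts, knockdown minus NT, was -1.47 and lay between -2.06 and -1.04 with each library left out, -2.001 without the 3 complex IV mRNAs, -1.83 from medians and -1.47 with nuclear copies added.

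With a replicate block the counts were 53, 61, 67 and 36. Over all genes, 35.1% were called higher and 32.9% lower with both shRNAs, and 35.8% and 34.0% with sh#16. With sh#87 the shares were 38.9% and 37.1%, and for sh#87 against sh#16 13.3% and 15.0%. The library numbers do not pair the libraries, so the fit with a block is no paired analysis.

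Of the 60 named genes 50 were called with both shRNAs, and 43 of these stayed called in every alternative fit. The other 7 were MT-ND4L, COX7C, COX7A2L, ATP5IF1, TMEM70, ATPAF1 and ESRRA. Over all genes tested, 72.1% were called with both shRNAs. Many of the named genes were picked as the highest or lowest changes of a complex or list in these same data. Their tally therefore cannot tell how well the members as a whole hold. Sign changes were limited to 8 uncalled members. With library totals SDHD was at 0.13, CYC1 at 0.22, ATP5F1A at 0.040, ATP5F1B at 0.23, COX7A2 at 0.26 and COX7B at 0.27. With upper-quartile scaling CYC1 was at 0.063, ATP5F1B at 0.061, COX7A2 at 0.079 and COX7B at 0.083, and with a weight per group CYC1 was at 0.051, ATP5F1B at 0.070, COX7A2 at 0.081 and COX7B at 0.12. With each library left out, SDHB lay between -0.088 and 0.22, CYC1 between -0.26 and 0.16, COX4I1 between -0.030 and 0.10, ATP5F1B between -0.18 and 0.077, COX7A2 between -0.085 and 0.031, and COX7B between -0.11 and 0.063. Not called in the report, MT-CO1 passed the threshold with DESeq2 (-0.79), with a weight per group (-1.08), in the fit of 3 groups (-0.87), without NT replicate 3 (-1.04) and without sh#87 replicate 3 (-0.94). So did CYCS with library totals (0.46), with upper-quartile scaling (0.26) and without NT replicate 1 (0.25), and SDHD in the fit of 3 groups (-0.17) and without NT replicate 3 (-0.23). The cause of these changes was not tested.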
